A study of Drosophila melanogaster with 3 samples.

Results

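The genes of the Snail family escargot (esg), worniu (wor) and snail (sna) and the POU genes nubbin (nub) and pdm2 were examined in a peak list of chromatin immunoprecipitation followed by sequencing (ChIP-seq) from Drosophila melanogaster. Their peaks were taken by position: a midpoint between 15240000 and 15500000 on chromosome arm 2L for the Snail family stretch of 260 kb, and between 12570000 and 12700000 on 2L for the POU stretch of 130 kb, in coordinates of the BDGP5 assembly. The rule found 9 peaks, 5 in the Snail family stretch and 4 in the POU stretch, of 1281 on 2L and 7579 in the whole list. The ChIP sample came from the source labelled 7T at the stage labelled 3dFemale, carried a GFP-tagged Caudal (cad-GFP in its title) and was precipitated with an anti-GFP antibody labelled NWG-GFP. Its title covers replicates 1 and 2, and a single list stands for them. The labels also give 2 input samples from the same source and stage, whose values were not analysed here. The labels name no tissue and do not say which promoter drives the tagged protein, and their growth text, which speaks of y w, VK33 flies, describes embryos rather than the labelled stage.

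Caudal is a DNA-binding protein of the homeodomain class, encoded by cad. It is known for setting up the posterior of the embryo and for its activity in the gut. Escargot, Worniu and Snail are zinc finger proteins that mostly act as repressors. Escargot keeps progenitor cells of the adult midgut undifferentiated, Worniu acts in neural stem cells, and Snail is known for its role in forming the mesoderm. Nubbin, also called Pdm1, marks the absorptive enterocytes of the midgut and is needed for wing growth, and Pdm2 is its close relative, acting with it in neural stem cells. The pairing of esg with progenitors and nub with enterocytes is why these loci bear on gut cell identity, but a peak list from a sample with no stated tissue does not say in which cells a peak arose.

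All 5 symbols were found in a RefSeq gene table of Release 6, a later assembly, which was used for names and gene order only. Along 2L its order is nub, pdm2, esg, wor and sna. Ref2 is the 1 gene listed between nub and pdm2. Between esg and wor the table lists 7 genes, of which 2 code for proteins, and between wor and sna it lists 5, of which 1 codes for a protein. The positions of these genes on BDGP5 were not used here, so peaks are described within each stretch and are assigned to no single gene.

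Few Caudal-GFP peaks lay in the stretch of esg, wor and sna, and its flanks of equal length were sparse as well, with 8 peaks on the left and 6 on the right. The Snail family stretch held 5 peaks, where the density of 2L would give 14.6 in that length, and 2.42% of its bases lay inside a peak, against 9.95% on 2L. The 5 peaks were unevenly placed: 4 stood within 27022 bp near the left edge, from 15248286 to 15275307, and the last stood at the right edge. The 223452 bp between them, from 15275308 to 15498759, held no peak and made up 85.9% of the stretch.

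The leftmost peak of the Snail family stretch, 2L:15248286-15249048, was 763 bp wide with a score of 77.24, the lowest score and the smallest width of the 5. The score is the authors' own value per peak. Its scale is not defined in the file, and it is used here only to order peaks within the list. The second peak, 2L:15263965-15265269, was 1305 bp wide with a score of 330.76. The next, 2L:15270778-15272223, was 1446 bp wide with a score of 307.05. These middle values lie above the median score of 2L, which was 195.5 with quartiles of 102.5 and 402.4.

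The rightmost peak of this left group, 2L:15273777-15275307, had the highest score of all 9 members, 727.35, in a width of 1531 bp. Of the 1281 peaks of 2L, 127 scored higher. Its midpoint lay 3.04 kb from that of the 1446 bp peak, the only pair inside the stretch with midpoints no more than 5 kb apart. The other distances between neighbouring midpoints of the group were 15.9 kb and 6.88 kb.

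The peak at the right edge, 2L:15498760-15500589, was the widest of all 9 members at 1830 bp and had a score of 452.57. Its midpoint lay 326 bp inside the edge of the Snail family stretch, and its last bases reached past that edge. Just outside, with a midpoint 1.16 kb beyond the edge, stood a peak of 414 bp at 2L:15500955-15501368 with a score of 55.15, separated from it by 365 bp. The next peak after this pair was 111 kb away. On the other side, the last peak before the stretch, 2L:15113036-15114111, had a score of 387.37 and a midpoint 126 kb before the left edge.

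**Figure D1:**
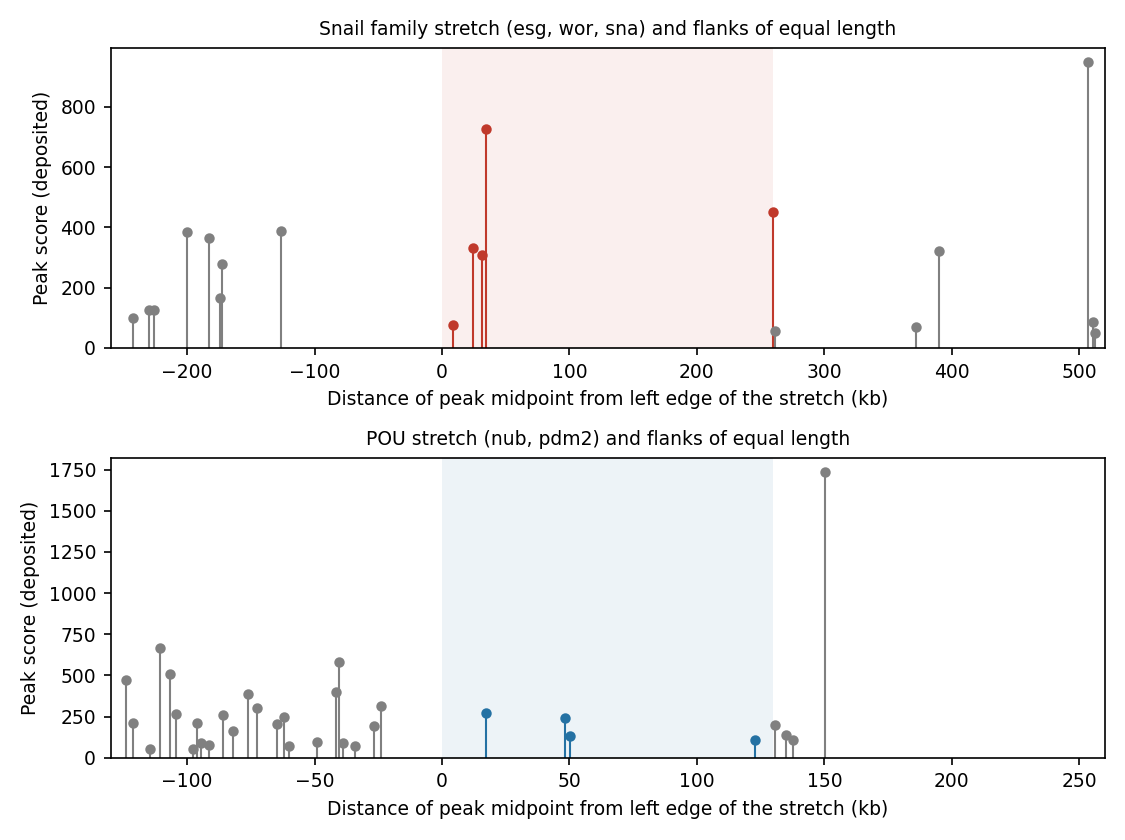
Peak score (vertical axis, deposited units) against distance of the peak midpoint from the left edge of the stretch in kb (horizontal axis), for the Snail family stretch (top) and the POU stretch (bottom), each shaded with its peaks in colour and with flanks of equal length in grey. In the Snail family stretch 4 peaks stand near the left edge and 1 at the right edge with 223 kb between them, and in the POU stretch the 4 peaks have scores of 110.98 to 273.49.

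The peak-free interval of the Snail family stretch was among the longest of the arm. Of the 1280 intervals between neighbouring peaks on 2L, 7 were longer than its 223452 bp, and the median interval was 3802 bp. Over the 7550 intervals of the 6 chromosome arms it ranked 27. The left group and the right pair were also set off from their surroundings, since an interval of 134174 bp without a peak preceded the first and one of 111 kb followed the second. Between the outer ends of these intervals, at 15114112 and 15611945, there were 6 peaks in 498 kb. These ends were set by the peaks themselves, so the span is not compared with the density of 2L. The read depth behind the list is unknown and no mappability was measured, so an interval without a peak is one in which none was called, and absence of binding was not tested.

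**Figure D2:**
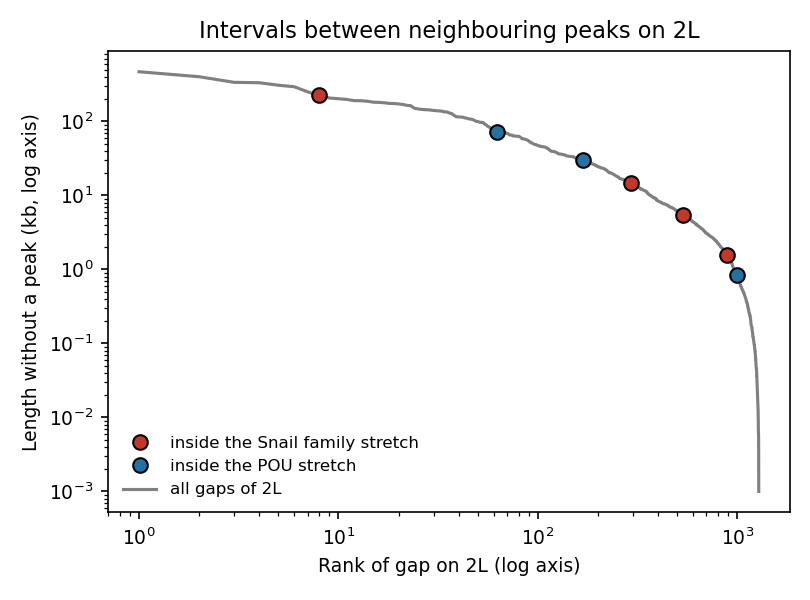
Length of every interval between neighbouring peaks on 2L in kb (vertical axis, log scale) against its rank from the longest (horizontal axis, log scale), with intervals wholly inside the Snail family stretch and the POU stretch as coloured points on the grey line of all 1280 intervals. The interval of 223 kb in the Snail family stretch ranks 8 and the interval of 71.7 kb in the POU stretch ranks 62.

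The POU stretch of nub and pdm2 held 4 peaks, where the density of 2L would give 7.28, and 2.95% of its bases lay inside a peak. Its highest score, 273.49, belonged to the leftmost peak, 2L:12586703-12587607, which was 905 bp wide and stood alone, 31.2 kb from the next midpoint. The second peak, 2L:12617866-12618885, was 1020 bp wide with a score of 239.88. The narrow peak 2L:12619727-12620390 followed it after 841 bp, with a score of 134.8 and the smallest width of the 9 members, 664 bp. This pair, 1.68 kb apart between midpoints, is the only one in the POU stretch within 5 kb.

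The rightmost peak of the POU stretch, 2L:12692132-12693376, was its widest at 1245 bp and had its lowest score, 110.98. A peak-free interval of 71741 bp, from 12620391 to 12692131, separated it from the pair and made up 55.2% of the stretch. On 2L 61 intervals were longer. The nearest peaks outside were 2L:12545208-12546937, 1730 bp wide with a score of 315.94 and 23.9 kb before the left edge, and 2L:12700050-12701060, 1011 bp wide with a score of 201.29 and 0.554 kb past the right edge. The rightmost peak was closer to this outer neighbour (7.80 kb between midpoints) than to any member.

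Set beside all windows of the same length laid end to end along 2L, both stretches lay in the lower part of the range, the Snail family stretch further down. Its 5 peaks compared with a median of 15 over 87 windows of 260 kb, with quartiles of 7 and 21 and a range of 0 to 33. Fewer peaks were found in 11 of these windows (12.6%, exact 95% binomial interval 6.48 to 21.5%), as many in 4 and more in 72. The windows are all complete ones of the arm, so this interval and the next measure no sampling error. By coverage, 14 windows were below the 2.42% of the stretch. With intervals cut at the window edges, 3 windows held a longer peak-free interval than 223 kb. Uncut, 7 intervals of 2L were longer, and the 223 kb interval itself lies wholly inside its stretch. The 4 peaks of the POU stretch compared with a median of 7 over 175 windows of 130 kb, with quartiles of 2.5 and 12 and a range of 0 to 22. Fewer peaks were found in 52 of them (29.7%, exact 95% binomial interval 23.1 to 37.1%), as many in 10 and more in 113. With intervals again cut at the window edges, 70 of these windows held a longer peak-free interval than 71.7 kb. The count of the POU stretch lay between the quartiles of its windows, and that of the Snail family stretch below the lower quartile. The counts depend on where the stretches end. Narrowed by 10 kb at each end, the Snail family stretch held 3 peaks, and widened by as much it held 6. The POU stretch held 3 peaks when narrowed in this way and 7 when widened. The peaks added to the POU stretch all lay past its right edge, so its low count depends on where that edge is set. Among windows with at least 1 peak, 19.1% held fewer peaks than the POU stretch.

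**Figure D3:**
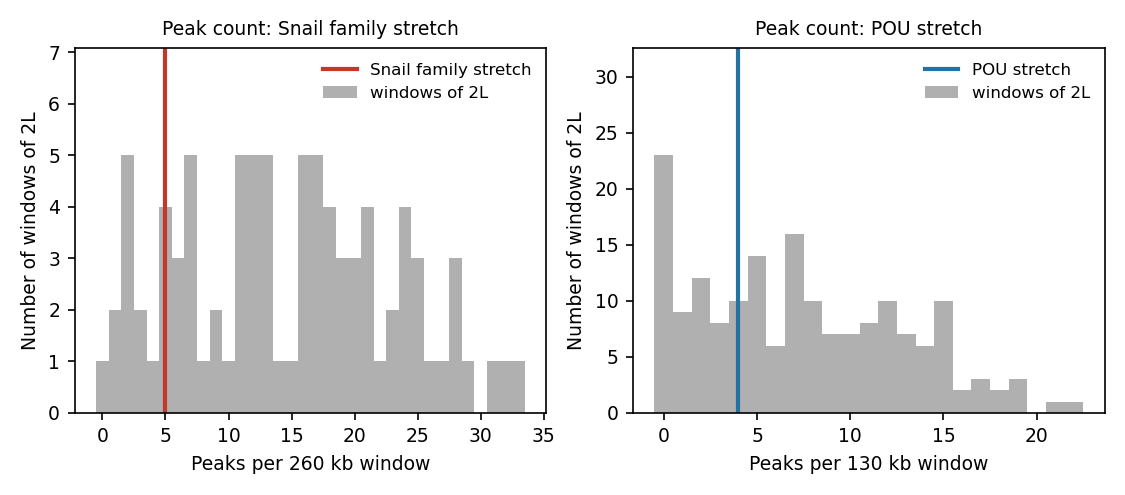
Number of windows of 2L (vertical axis) by the number of peaks they hold (horizontal axis), for 87 windows of 260 kb (left) and 175 windows of 130 kb (right), with a coloured line at the count of the Snail family stretch (5 peaks) and of the POU stretch (4 peaks). The Snail family stretch lies below the lower quartile of 7 and the POU stretch between the quartiles of 2.5 and 12.

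Occupied steps of 10 kb recount the same midpoints and add no separate support to the window comparison. The Snail family stretch had a midpoint in 4 of 26 steps (15.4%) and the POU stretch in 4 of 13 (30.8%), against 34.8% of the 2287 steps of 2L. Both stretches had 4 occupied steps, so their shares differ only through their lengths.

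Most of the few peaks of the Snail family stretch had scores above the median of the arm, while those of the POU stretch stood on each side of it. The median score was 330.76 in the Snail family stretch and 187.34 in the POU stretch, against 195.5 on 2L. In the Snail family stretch 4 of 5 peaks scored above the median of 2L, and in the POU stretch 2 of 4 did. Of all 9 members 8 had a score of 100 or more, against 76.7% of the peaks of 2L, and 0 of 9 reached 1000, against 6.25%. Among the 86 windows of 260 kb that hold a peak, 6 had a higher median score than the Snail family stretch and 79 a lower one. Among the 152 windows of 130 kb that hold a peak, 84 had a higher median score than the POU stretch and 68 a lower one. Medians over 5 and 4 peaks move with single peaks, and without replicate lists no error can be put on them.

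The 9 members were split over the width quartile classes of 2L, with 2 in the narrowest class, 4 and 3 in the next ones and 0 in the widest, which starts at 2133 bp. The median width was 1446 bp in the Snail family stretch and 962.5 bp in the POU stretch, against 1334 bp on 2L. All 4 peaks of the POU stretch were narrower than that median, and 3 of 5 in the Snail family stretch were wider. Score and width come from the same peak call and rise together on 2L, where the median score was 97.99 in the narrowest class, then 159 and 248.8, and 475.4 in the widest. Compared with the median of their own width class, 4 of 5 peaks of the Snail family stretch and 3 of 4 of the POU stretch scored higher, where that median by its construction leaves about equal numbers on each side. The exceptions were the leftmost peak of the Snail family stretch (77.24 against 97.99) and the rightmost of the POU stretch (110.98 against 159).

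**Figure D4:**
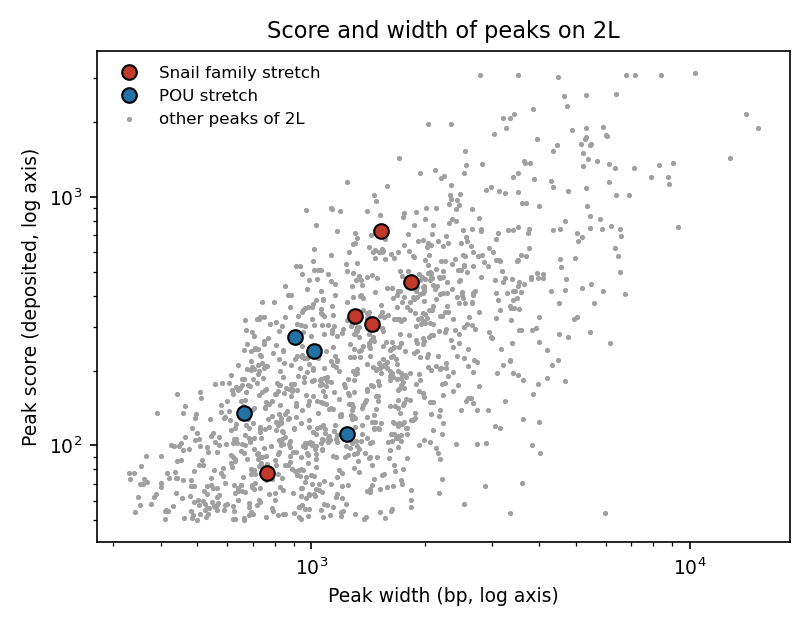
Score (vertical axis, deposited units, log scale) against width in bp (horizontal axis, log scale) for the peaks of 2L, with the 5 peaks of the Snail family stretch and the 4 of the POU stretch coloured and the others in grey. The members have widths between 664 and 1830 bp, with scores between 77.24 and 727.35, and the widest and highest-scoring peaks of 2L lie outside both stretches.

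A neighbouring midpoint within 5 kb, counting peaks outside the stretches too, was found for 5 of the 9 members, against 66.0% of the peaks of 2L. These were the peaks of 1446 and 1531 bp in the Snail family stretch, its right-edge peak beside the outer neighbour, and the peaks of 1020 and 664 bp in the POU stretch.

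The surroundings of the stretches differed. Flanks of 260 kb beside the Snail family stretch were sparse on each side, with 8 peaks on the left and 6 on the right. The density of 2L would give 14.6 in each. Peaks covered 3.54% of the left flank and 2.78% of the right, so the low count is not particular to the stretch. The POU stretch had 24 peaks in the 130 kb to its left and 4 in the 130 kb to its right. That left flank was covered to 32.8% by peaks, against 2.95% in the POU stretch beside it, and its last peak ended at 12546937. The right flank of the POU stretch held the highest score near either locus, 1735.72.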

How the data were processed

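ChIP-seq of 1 ChIP sample, with 2 inputs listed, was the source, and the data analysed were the 1 peak list of the ChIP sample. The peak caller was MACS, per the file headers. Bowtie aligned the reads to BDGP5, per the submitters' processing notes. Their versions, their settings and how ChIP replicates 1 and 2 were combined are unknown (not given in the sources used here). Each peak has a score deposited by the authors, whose scale is not stated. Starts are printed from 1, and a midpoint is the mean of deposited start and end. Counts, coverage, intervals and windows were computed in Python 3.11.15 with numpy 2.4.6, and exact binomial intervals with scipy 1.17.1. These intervals treat windows as independent draws, although the windows are all complete ones of 2L and not a sample. They therefore measure no sampling error here and serve only to say which alternative shares moved. The arm was measured to the end of its last peak, 22875435, and the windows include those that overlap the stretches. No sample comparison or test was possible with 1 list. Random windows were replaced by all windows of the length laid end to end. The stretches, members and genes were chosen with earlier results of these data known. The rule for named peaks (highest and lowest scores, widest, narrowest, ends of the longest gap and run) took in all 9 members, and the nearest peaks outside were added. The window counts were tested on simulated data. Alternatives varied member rule, score minimum, merging and window layout. No BDGP5 annotation or genome and no promoter or protein sequence was used here, so gene assignment, the Caudal motif and the protein comparison were not run.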

Additional observations from a re-analysis of the deposited data

How the results depend on the processing

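Of 38 alternatives over the counts, window shares, coverage and medians of the stretches, 30 stayed within 1.5 times the reported count, within the binomial interval of the share, or at the same coverage or median. This tally is not a measure of robustness. Counting any overlap or only peaks wholly inside, the score minimum and the merging all left the members of the POU stretch unchanged. Its count, coverage and medians could not move under these settings. With a score of 100 or more, the Snail family stretch had 2.12% coverage, a median score of 391.66 and a median width of 1488 bp. After merging of peaks no more than 500 bp apart, its median score was 318.9 and its median width 1376 bp, because its right-edge peak joined its outer neighbour and left the stretch. With the stretch narrowed by 10 kb at each end, chosen after seeing the data, its count was 3, since its outermost peaks lie within that distance of the edges. The POU stretch widened by 10 kb at each end, also chosen after seeing the data, held 7 peaks. The Snail family stretch widened in this way held 6 peaks and the POU stretch narrowed held 3, each within 1.5 times the reported count. Among windows of 130 kb with at least 1 peak, 19.1% held fewer peaks than the POU stretch, since 23 windows with none were left out. The Snail family share stayed between 11.5% and 14.9% in its 5 alternatives. No paired analysis was possible because 1 list stands for the ChIP replicates, and no replicate could be left out for that reason. The unknown depth limits what a peak-free interval shows.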

Other observations

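The 24 peaks left of the POU stretch are a number that few stretches of 2L reach. Of 2275 overlapping windows of 130 kb, laid every 10 kb along the arm, 11 (0.484%) held as many or more. These include the flank itself, and overlapping windows share peaks, so they are not separate stretches. The highest score and the greatest width in this flank belonged to the same peak, 2L:12456966-12462035, which was 5070 bp wide with a score of 665.9. This flank was picked after its values were seen, and no gene was assigned to it.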
